A study of Homo sapiens with 30 samples.

Results

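The sorafenib response of HepG2 cells after 6 h was set against the response after 24 h, gene by gene, as a difference of differences: sorafenib minus DMSO at 24 h, less sorafenib minus DMSO at 6 h. HepG2 is an established human liver tumour line with hepatocyte features. The comparison used 12 of the 30 libraries of the series, in 4 groups of 3, and libraries were assigned to groups by their sample labels. The arms themselves were chosen with earlier results of these data known, as those with the least mixing of reads between libraries. The early arm was I200c, cells transfected with an inhibitor of miR-200c-3p and given DMSO or 10 µM sorafenib for 6 h (I200c_DMSO, I200c_sorafenib). The late arm was M512, cells transfected with a mimic of miR-512-3p and given DMSO or 10 µM sorafenib for 24 h (M512_DMSO, M512_sorafenib). All cultures were transfected with an oligonucleotide 24 h before treatment, and there was no untransfected group. Oligonucleotide and time change together between the arms, so a difference between them cannot be told apart as an effect of time or of the oligonucleotide.

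Sorafenib is a kinase inhibitor used in advanced hepatocellular carcinoma, and it acts on RAF kinases and on growth factor receptors such as VEGFR and PDGFR. Transcripts that depend on ERK signalling are known to react early to RAF inhibition. The integrated stress response, which raises translation of the transcription factor ATF4, turns on genes of amino acid supply and of cell death. Metallothioneins are small zinc- and copper-binding proteins whose genes are switched on by MTF1 when free zinc rises.

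The 2 miRNAs whose oligonucleotides separate the arms are shown because every 6 h against 24 h value below also compares them. Their seeds, bases 2 to 8, are in capitals and differ. miR-200c-3p belongs to the miR-200 family, known to hold back ZEB1 and ZEB2 in epithelial cells, and miR-512-3p comes from the large miRNA cluster of chromosome 19.
miR-200c-3p: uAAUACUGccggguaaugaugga
miR-512-3p: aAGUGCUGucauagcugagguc
The mature sequences are those of RefSeq on GRCh38.p14, at chr12:6963742-6963764 (plus strand) for miR-200c-3p, and at chr19:53666729-53666750 and chr19:53669213-53669234 (plus strand) for the 2 gene copies of miR-512-3p.

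The 12 libraries held 5720660 to 9657060 counts, and taking 3 counts as the limit, a count of 0 allows 0.311 to 0.524 CPM (counts per 1e+06 counts of the library, TMM-scaled wherever a level is given). Limits of this kind cover counting error only. Hepatocyte markers such as ALB, APOB and HNF4A were present in all 4 groups. Of 14 markers of blood, vessel, stromal and neural cells 6 or 7 were at 0 in each group, CD3E, VWF and RBFOX3 in all 4. The rest had counts. The summed level of the 14 was 52.5 to 123 CPM in I200c_DMSO and 59.9 to 71.0 CPM in I200c_sorafenib. It was 58.3 to 247 CPM in M512_DMSO and 34.2 to 50.8 CPM in M512_sorafenib. The share of mitochondrial counts was 17.5% to 26.8%. M512_sorafenib replicates were more spread than the others, with a median SD over genes of 0.475 log2 CPM against 0.30 to 0.355 in the other 3 groups. MT1B, a metallothionein gene used as a label check, was at 0 counts in the 3 I200c_DMSO libraries, at 0, 0.45 and 0 CPM in M512_DMSO, at 29.1, 34.7 and 44.9 CPM in I200c_sorafenib and at 201, 125 and 273 CPM in M512_sorafenib. No DMSO library of these arms thus reached the level of any sorafenib library. Because the arms were chosen for little mixing of reads, this check is not independent of that choice. In bulk cultures, fewer cells of a type and less RNA per cell cannot be told apart.

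Of 13211 genes tested, sorafenib at 6 h raised 36 (0.273%) and lowered 26 (0.197%). At 24 h it raised 789 (5.97%) and lowered 779 (5.9%). The 2 effects differed in 318 genes, the 24 h effect lying higher in 182 (1.38%) and lower in 136 (1.03%). A gene is said here to rise, fall or differ where its Benjamini-Hochberg adjusted p in the edgeR quasi-likelihood test was under 0.05, and ± beside a log2 fold change is its standard error (SE). When libraries were scaled to their total counts rather than by TMM (trimmed mean of M values), the median over all genes went from -0.03 to -0.22 at 24 h and from -0.03 to -0.18 in the difference. The higher share of the calls then moved from 50.3% to 29% at 24 h and from 57.2% to 37.8% in the difference. At 6 h, 1066 genes had an unadjusted p under 0.05, where 661 are expected by chance.

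Genes were sorted by these 3 calls. Early-only genes changed at 6 h, did not pass at 24 h and had effects that differed. Late-only genes changed at 24 h, did not pass at 6 h and had effects that differed. Lasting genes changed in the same direction at both times, and reversed genes changed in opposite directions, with effects that differed. There were 2 early-only, 287 late-only, 51 lasting and 3 reversed genes. A further 1227 genes changed at 24 h and 6 at 6 h with no call on the difference, so these belong to neither time alone, and 20 had effects that differed with neither effect past the threshold. M512_sorafenib replicate 2, the library with the lowest mean correlation with its group (0.904), weighed on these counts. Without it 128 genes changed at 6 h, 541 differed, and there were 11 early-only, 460 late-only, 73 lasting and 10 reversed genes. Without I200c_sorafenib replicate 1 or 2, 37 and 41 changed at 6 h, 195 and 176 differed, 181 and 161 were late-only and 0 were reversed, and without the former 1 was early-only. Without I200c_DMSO replicate 1, 41 changed at 6 h. Without M512_sorafenib replicate 3 there were 102 genes at 6 h, 6 early-only and 7 reversed, and without M512_sorafenib replicate 1 there was 1 reversed gene. Without M512_DMSO replicate 1, 2 or 3, 184, 176 and 218 differed and 168, 158 and 190 were late-only, 1 gene was reversed in each case, and 962 and 1003 genes changed at 24 h without replicate 2 or 3.

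**Figure D1:**
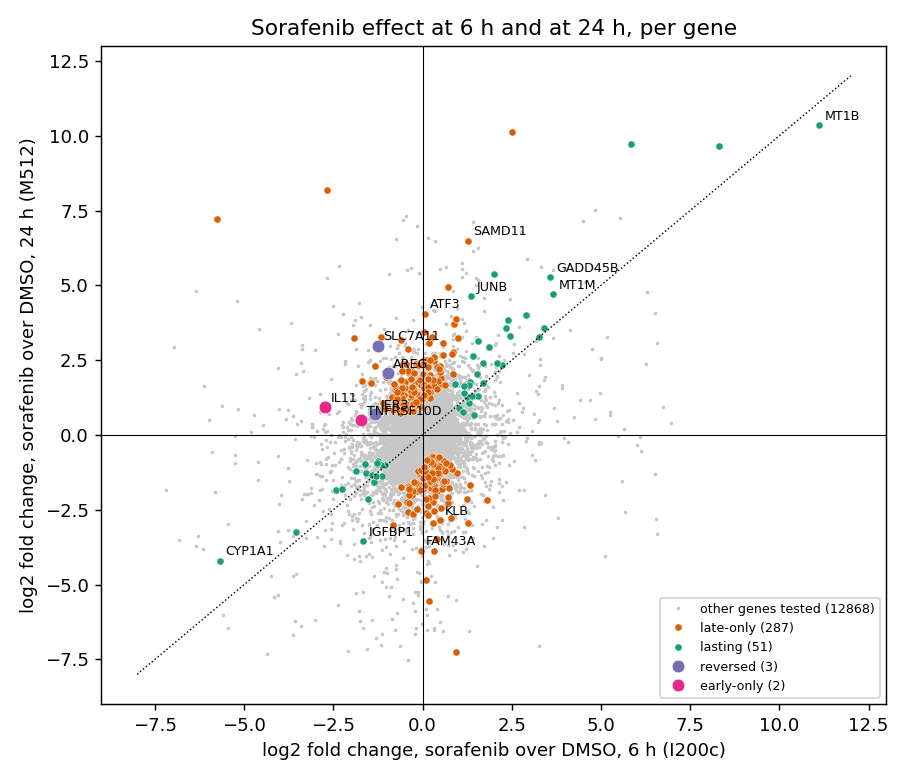
Each point is a gene, with the log2 fold change of sorafenib over DMSO at 6 h (I200c) on the x axis and at 24 h (M512) on the y axis; the dotted line marks equal effects and colours mark the 4 classes. The 287 late-only genes have a median size of 0.319 on the x axis and 1.55 on the y axis, some of them lying away from 0 on both, while the 51 lasting genes lie on the same side of 0 on both axes.

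Lasting genes were led by the metallothioneins. Of the 10 genes of the metallothionein and zinc list, all of them tested, 9 rose at 6 h and 9 at 24 h, against 0.273% and 5.97% of all genes. The list median was 2.86 at 6 h and 2.90 at 24 h on the log2 scale, against 0.01 and -0.03 over all genes. In these arms no member of the list had effects that differed between the times. Metallothionein genes are close copies of each other, so reads may be shared among them and the value of a single copy is uncertain.

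MT2A, the most abundant of them, was at 914, 985 and 883 CPM in I200c_DMSO and at 5308, 5075 and 4828 CPM in I200c_sorafenib. In the late arm it was at 1534, 1291 and 1382 CPM with DMSO and at 10970, 14500 and 15921 CPM with sorafenib. Every sorafenib library lay above every DMSO library in both arms. The log2 fold change was 2.45 ± 0.18 (adjusted p = 3.24e-08) at 6 h and 3.30 ± 0.19 (adjusted p = 5.02e-10) at 24 h, and the difference of 0.85 ± 0.24 did not pass (adjusted p = 0.0745). MT1X rose from 45.1, 44.2 and 45.8 CPM to 630, 404 and 405 CPM at 6 h and from 91.4, 65.7 and 68.8 CPM to 937, 893 and 876 CPM at 24 h. Its effects were 3.41 ± 0.22 and 3.58 ± 0.22, with a difference of 0.17 ± 0.28 (adjusted p = 0.841). MT1B rose at least 95.01-fold at 6 h, with each of the 3 DMSO libraries set to the limit of 3 counts. MT1M rose by 3.67 ± 0.30 and 4.70 ± 0.28, and MT1G by 3.26 ± 0.21 at both times. SLC30A1, which exports zinc from the cell, rose by 1.68 ± 0.28 (adjusted p = 0.00216) and 1.72 ± 0.28 (adjusted p = 0.000289). MT1H was the member that passed at neither time, at 3.28 and 2.53 on the log2 scale.

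The promoters of MT2A and MT1X are shown because their genes moved together at both times. Capitals mark the core of the metal response element bound by MTF1, TGCACNC or TGCGCNC on either strand, in 250 bases before and 50 after the RefSeq start.
MT2A, chr16:56608334-56608633, plus strand: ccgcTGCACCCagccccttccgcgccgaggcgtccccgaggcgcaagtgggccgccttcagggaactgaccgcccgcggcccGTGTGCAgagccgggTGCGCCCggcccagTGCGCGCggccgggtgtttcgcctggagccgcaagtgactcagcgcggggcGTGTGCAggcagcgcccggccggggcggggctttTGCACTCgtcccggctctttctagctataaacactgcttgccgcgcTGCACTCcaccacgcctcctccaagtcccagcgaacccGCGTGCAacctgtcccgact
MT1X, chr16:56682220-56682519, plus strand: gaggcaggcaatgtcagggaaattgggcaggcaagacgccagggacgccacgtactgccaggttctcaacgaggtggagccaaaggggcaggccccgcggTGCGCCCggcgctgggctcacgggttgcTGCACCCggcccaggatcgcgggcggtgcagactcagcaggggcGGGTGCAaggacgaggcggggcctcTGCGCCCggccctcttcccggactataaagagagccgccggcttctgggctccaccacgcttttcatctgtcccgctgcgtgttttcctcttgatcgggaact
The MT2A window held 8 matches and the MT1X window 4. All 5 metallothionein-list promoters with an entry held at least 1 match, as did 59.3% of the promoters of lasting genes that rose, 38.8% of late-only genes that rose and 37.3% of all tested genes. These shares are over promoters, of which a gene can have several, and a match is a run of letters and not a measured site.

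Other lasting genes also rose. GADD45B, a stress sensor of the GADD45 family, was at 16.7, 13.0 and 17.7 CPM in I200c_DMSO and 166, 181 and 223 CPM in I200c_sorafenib. In M512_DMSO it was at 11.1, 6.30 and 4.47 CPM and in M512_sorafenib at 327, 236 and 287 CPM. It rose by 3.59 ± 0.27 at 6 h and by 5.27 ± 0.29 at 24 h, a difference of 1.68 ± 0.36 (adjusted p = 0.0133). That difference was lost in 2 of 19 alternatives, with adjusted p from 7.63e-05 to 0.288. DDIT3, which encodes CHOP, a pro-death factor of the stress response, rose by 1.70 ± 0.27 (adjusted p = 0.00143) and 2.40 ± 0.27 (adjusted p = 4.46e-06), and its effects did not pass as different (adjusted p = 0.395). HSPA1B, a heat shock protein gene nearly identical to HSPA1A and so uncertain, rose by 1.30 ± 0.26 and 1.06 ± 0.25. The 6 h rise of HSPA1B was lost in 4 of 20 alternatives, with adjusted p from 8.32e-05 to 0.12.

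Of the 51 lasting genes, 6 had effects that differed, and all 6 were larger in size at 24 h: MT-TV, JUNB, IGFBP1, GADD45B, NUAK2 and NFKBIA. MT-TV, NUAK2 and NFKBIA are named here after their values were seen. JUNB, an AP-1 subunit, was at 34.9, 26.9 and 37.4 CPM in I200c_DMSO, 88.5, 85.1 and 80.6 CPM in I200c_sorafenib, 7.75, 4.35 and 7.55 CPM in M512_DMSO and 198, 99.1 and 191 CPM in M512_sorafenib. The DMSO level was lower in the late arm (-2.33 ± 0.28 on the log2 scale) and the sorafenib level was higher (0.94 ± 0.25), both past the threshold. The 6 h rise of JUNB was lost in 3 of 20 alternatives, with adjusted p from 4.4e-06 to 0.112. NFKBIA, the inhibitor of NF-κB, rose by 1.43 ± 0.19 and 2.62 ± 0.20, with a difference of 1.20 ± 0.26 (adjusted p = 0.0146). NUAK2, a kinase of the AMPK family, rose by 1.57 ± 0.25 and 3.12 ± 0.27. MT-TV is a mitochondrial transfer RNA gene, short and embedded between ribosomal RNA genes, and its rise by 2.01 ± 0.31 and 5.38 ± 0.35 is uncertain for that reason.

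Lasting genes that fell included CYP1A1, the cytochrome P450 that the aryl hydrocarbon receptor induces. CYP1A1 was at 57.6, 72.7 and 78.0 CPM in I200c_DMSO and 1.90, 1.92 and 0.118 CPM in I200c_sorafenib. It was at 1.97, 2.25 and 2.52 CPM in M512_DMSO and 0, 0 and 0.242 CPM in M512_sorafenib. The fall at 24 h therefore started from a lower DMSO level than at 6 h (-4.95 ± 0.48 on the log2 scale, adjusted p = 4.93e-06). The effects were -5.68 ± 0.50 and -4.21 ± 0.85, the second resting on levels at or under the limit of a count of 0 and so on the prior count of the fit. The 24 h fall was lost in 2 of 20 alternatives, with adjusted p from 4.79e-07 to 0.155. With the control mimic at 24 h, described further on, the CYP1A1 effect was -0.05 ± 0.90 (adjusted p = 0.98). Of 5 tested aryl hydrocarbon receptor targets, CYP1A1 alone fell at 6 h (background 0.197%) and TIPARP alone rose at 24 h, by 1.21 ± 0.36 (adjusted p = 0.0308, lost in 8 of 20 alternatives). The CYP1A1 promoter is shown with the core letters of the xenobiotic response element, GCGTG on either strand, in capitals; the window held 1 match, and 48.9% of promoters of tested genes held at least 1.
CYP1A1, chr15:74725479-74725778, minus strand: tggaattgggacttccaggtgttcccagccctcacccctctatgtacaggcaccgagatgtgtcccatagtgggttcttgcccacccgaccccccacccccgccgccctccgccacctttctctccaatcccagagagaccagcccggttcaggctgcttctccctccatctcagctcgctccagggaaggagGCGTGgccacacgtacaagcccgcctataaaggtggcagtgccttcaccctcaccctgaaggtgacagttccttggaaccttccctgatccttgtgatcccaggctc

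GPAM, the first enzyme of glycerolipid synthesis, showed nearly the same fall at both times. It was at 135, 134 and 134 CPM against 50.1, 57.3 and 49.8 CPM at 6 h, and at 136, 183 and 162 CPM against 51.6, 69.0 and 40.7 CPM at 24 h. The sorafenib libraries lay below all DMSO libraries, with effects of -1.35 ± 0.21 (adjusted p = 0.00112) and -1.58 ± 0.21 (adjusted p = 3.3e-05). SLC23A2, a vitamin C transporter, fell by 1.43 and 1.32, and E2F8, a repressor of cell cycle genes, fell by 2.42 and 1.85 on the log2 scale. The 6 h fall of E2F8 was lost in 5 of 20 alternatives, with adjusted p up to 0.0919, and its 24 h fall in 3, with adjusted p up to 0.0927. DUSP6, the ERK phosphatase whose transcript follows ERK activity, was at 59.5, 51.6 and 56.3 CPM against 18.7, 25.7 and 25.6 CPM at 6 h, and at 50.9, 74.5 and 69.9 CPM against 38.3, 22.9 and 45.6 CPM at 24 h. It fell by 1.26 ± 0.25 (adjusted p = 0.0178) at 6 h and the 24 h effect was -0.86 ± 0.25 (adjusted p = 0.0274).

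IGFBP1, a secreted binder of insulin-like growth factors made by liver, fell at both times and differed in where it started. It was at 56.3, 66.9 and 82.4 CPM in I200c_DMSO, 19.6, 21.9 and 23.5 CPM in I200c_sorafenib, 558, 495 and 550 CPM in M512_DMSO and 31.5, 40.5 and 64.1 CPM in M512_sorafenib. The M512_DMSO libraries stood far above the other 9. In libraries of the mimic control at 24 h, described further on, the mean was 36.5 ± 12.3 CPM with DMSO and 40.1 ± 28.7 CPM with sorafenib (SD, n = 3), so no MC_DMSO library came near the M512_DMSO level. The effects were -1.66 ± 0.23 and -3.55 ± 0.25, and the difference was -1.89 ± 0.32 (adjusted p = 0.00229).

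**Figure D2:**
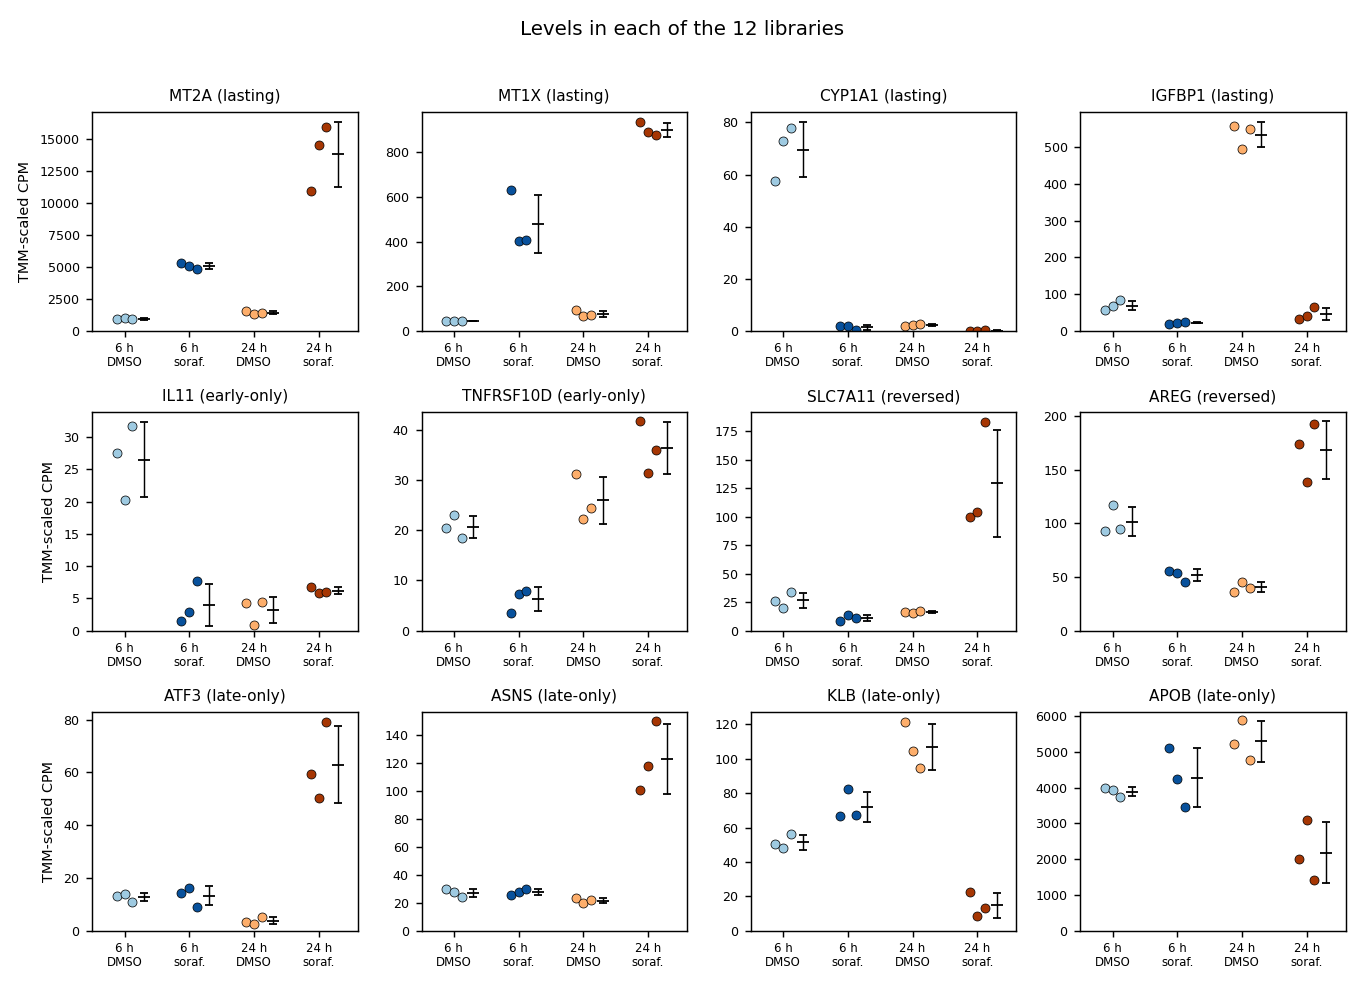
TMM-scaled CPM of 12 genes in each of the 12 libraries, for 6 h (I200c, blue) and 24 h (M512, orange) with DMSO (light) and sorafenib (dark). Points are libraries and the bar is the mean ± SD of 3. MT2A and MT1X are high in both sorafenib groups, IL11 is high only in I200c_DMSO, and SLC7A11, AREG, ATF3 and ASNS are highest in M512_sorafenib.

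Both early-only genes fell at 6 h. IL11, a cytokine of the interleukin 6 family on chromosome 19 (chr19:55364382-55370463, minus strand), was at 27.5, 20.2 and 31.7 CPM in I200c_DMSO and at 1.46, 2.83 and 7.70 CPM in I200c_sorafenib. It was at 4.30, 0.90 and 4.47 CPM in M512_DMSO and at 6.81, 5.76 and 5.93 CPM in M512_sorafenib. The 3 I200c_DMSO libraries stood above the other 9. The effect was -2.73 ± 0.53 (adjusted p = 0.0136) at 6 h and 0.92 ± 0.54 (adjusted p = 0.299) at 24 h, with a difference of 3.65 ± 0.76 (adjusted p = 0.0107). The DMSO groups differed by -3.02 ± 0.55 (adjusted p = 0.00439) and the sorafenib groups by 0.63 ± 0.53 (adjusted p = 0.546), so the part in the DMSO cultures passed and the part in the sorafenib cultures did not. The 6 h fall was lost in 5 of 20 alternatives, among them leaving out I200c_DMSO replicate 1 or 3 or I200c_sorafenib replicate 1 or 2, with adjusted p from 1.94e-06 to 0.127. The promoter held 1 match of the AP-1 letters TGANTCA, in capitals, as did 4.9% of the promoters of tested genes.
IL11, chr19:55370414-55370713, minus strand: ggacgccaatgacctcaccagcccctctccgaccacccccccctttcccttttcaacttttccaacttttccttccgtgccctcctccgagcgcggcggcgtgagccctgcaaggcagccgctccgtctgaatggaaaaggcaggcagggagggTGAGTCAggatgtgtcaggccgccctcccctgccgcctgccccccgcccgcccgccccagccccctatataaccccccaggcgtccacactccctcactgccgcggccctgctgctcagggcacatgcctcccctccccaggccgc

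TNFRSF10D, a decoy receptor for the death ligand TRAIL, was at 20.5, 23.0 and 18.4 CPM in I200c_DMSO and at 3.58, 7.28 and 7.94 CPM in I200c_sorafenib. It was at 31.1, 22.2 and 24.5 CPM in M512_DMSO and at 41.6, 31.3 and 36.1 CPM in M512_sorafenib. Here the low group was I200c_sorafenib, unlike IL11. The effect was -1.72 ± 0.30 (adjusted p = 0.00517) at 6 h and 0.49 ± 0.29 (adjusted p = 0.299) at 24 h, and the sorafenib groups differed by 2.53 ± 0.31 (adjusted p = 4.17e-05). TNFRSF10B, the signalling TRAIL receptor of the p53 list, had effects that differed by 1.40 ± 0.29 (adjusted p = 0.0117), with -0.85 ± 0.21 at 6 h and 0.55 ± 0.21 at 24 h, neither past the threshold. The 6 h fall of TNFRSF10D was lost without I200c_sorafenib replicate 1 (adjusted p = 0.0596), with adjusted p from 1.08e-05 to 0.0596 over 20 alternatives. TNFSF10, the ligand TRAIL itself, was late-only and fell at 24 h, with an effect of -2.94 ± 0.60 (adjusted p = 0.00259). It was at 1.03, 1.85 and 2.31 CPM in I200c_DMSO, 4.03, 4.25 and 4.50 CPM in I200c_sorafenib, 18.0, 20.7 and 11.3 CPM in M512_DMSO and 0.584, 4.80 and 1.21 CPM in M512_sorafenib.

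The 3 reversed genes, SLC7A11, AREG and IER3, all fell at 6 h and rose at 24 h. SLC7A11, the cystine importer that feeds glutathione synthesis (chr4:138164097-138242349, minus strand), was at 26.0, 20.2 and 33.6 CPM in I200c_DMSO and 8.29, 14.2 and 11.3 CPM in I200c_sorafenib. In M512_DMSO it was at 16.7, 15.1 and 17.3 CPM and in M512_sorafenib at 100, 105 and 183 CPM. The groups did not overlap in either arm. The effects were -1.24 ± 0.28 (adjusted p = 0.0456) and 2.98 ± 0.29 (adjusted p = 4.49e-07), and their difference was 4.22 ± 0.40 (adjusted p = 3.2e-06). The 6 h fall was near the threshold and was lost in 12 of 20 alternatives, with adjusted p from 0.00076 to 0.311 (the highest without I200c_sorafenib replicate 1) and in 9 of the 12 that leave out 1 library (not without I200c_DMSO replicate 2 or M512_sorafenib replicate 2 or 3), while the 24 h rise and the difference passed in all.

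AREG, the EGF receptor ligand amphiregulin (chr4:74445136-74455005, plus strand), was at 92.9, 117 and 95.1 CPM against 55.8, 53.7 and 45.5 CPM at 6 h. At 24 h it was at 36.3, 45.4 and 39.7 CPM with DMSO and at 174, 139 and 193 CPM with sorafenib. The effects were -0.98 ± 0.20 (adjusted p = 0.0167) and 2.06 ± 0.20 (adjusted p = 6.44e-07). Both parts of the difference of 3.04 ± 0.28 passed: DMSO cultures were lower at 24 h (-1.33 ± 0.20) and sorafenib cultures higher (1.71 ± 0.20). IER3, an early response gene whose protein is an ERK substrate, was at 886, 602 and 586 CPM against 283, 264 and 275 CPM at 6 h, and at 598, 511.9 and 513.6 CPM against 924, 1123 and 565 CPM at 24 h, where the groups overlapped. Its effects were -1.34 ± 0.23 (adjusted p = 0.00321) and 0.69 ± 0.22 (adjusted p = 0.0488), and the latter was lost in 11 of 20 alternatives, with adjusted p from 0.00318 to 0.176, the highest without M512_sorafenib replicate 2. The 6 h fall of AREG was lost in 4, those without I200c_DMSO replicate 2 or any I200c_sorafenib library, with adjusted p from 8.52e-05 to 0.127. The AREG promoter, shown because both parts of its difference passed, held 1 match of the cAMP response element TGACGTCA, in capitals, which 2.9% of promoters of tested genes and 5.8% of those of late-only genes that rose also held.
AREG, chr4:74444886-74445185, plus strand: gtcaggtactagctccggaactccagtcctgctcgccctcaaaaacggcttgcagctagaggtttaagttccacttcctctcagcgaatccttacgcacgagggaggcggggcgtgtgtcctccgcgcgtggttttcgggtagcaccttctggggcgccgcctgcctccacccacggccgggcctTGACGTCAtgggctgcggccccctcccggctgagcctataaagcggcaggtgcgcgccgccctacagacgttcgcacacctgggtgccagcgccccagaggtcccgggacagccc

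With a wider rule, a call in at least 1 arm and a log2 fold change over 0.5 in size in both, 70 genes had effects of opposite sign that differed. Among all 318 genes with effects that differed, 226 had opposite signs at the 2 times. Most of those genes passed at only 1 time, so their sign at the other is a value and not a change. Picking genes by a difference between 2 effects also favours opposite signs, so both counts partly follow from the choice. For comparison, of the 11615 genes with no call of any kind, 6415 had the same sign at both times.

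Late-only genes numbered 157 that rose and 130 that fell. The median effect of those that rose was 1.57 at 24 h and -0.19 at 6 h, where 97 of the 157 were below 0. The median of those that fell was -1.50 at 24 h and 0.26 at 6 h, where 104 of the 130 were above 0. Over all 13211 genes tested, 6449 were below 0 and 6762 above 0 at 6 h. Late-only genes are picked partly on the difference, and this choice favours a 6 h value of the opposite sign. The counts therefore describe the class and do not test it. By the naming rule the 5 that rose with the widest differences were SAMD11, CREB5, NR1D1, ATF3 and EMP3, and the 5 that fell were TNFSF10, SLC22A7, FAM43A, AGXT and SLC45A3.

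ATF3, a stress-induced repressor that ATF4 turns on, was at 13.0, 14.1 and 10.9 CPM in I200c_DMSO and 14.3, 16.3 and 9.12 CPM in I200c_sorafenib. It was at 3.44, 2.70 and 5.17 CPM in M512_DMSO and 59.5, 50.3 and 79.1 CPM in M512_sorafenib. Only the 24 h groups were apart. The effects were 0.07 ± 0.30 and 4.06 ± 0.34 (adjusted p = 5.47e-08), and the difference was 3.99 ± 0.44 (adjusted p = 2.83e-05). NR1D1, the clock repressor REV-ERBα, was at 1.23, 1.80 and 1.40 CPM in M512_DMSO and at 35.0, 43.6 and 58.9 CPM in M512_sorafenib, with effects of 0.72 ± 0.39 at 6 h and 4.95 ± 0.45 at 24 h. SAMD11 was at 0, 0.30 and 0.14 CPM in M512_DMSO, against 3.25, 8.89 and 3.20 CPM in I200c_DMSO, so its fitted 24 h effect of 6.49 ± 0.75 starts from levels at or under the limit of a count of 0 and depends on the prior count of the fit. CREB5 rose by 3.27 ± 0.51 and EMP3 by 3.16 ± 0.60 at 24 h, and the DMSO level of CREB5 was likewise lower at 24 h (-3.27 ± 0.51, adjusted p = 0.000957).

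Among those that fell, AGXT, which detoxifies glyoxylate in liver peroxisomes, was at 2.36, 1.23 and 2.98 CPM in I200c_DMSO, 4.59, 4.85 and 1.90 CPM in I200c_sorafenib, 21.0, 22.3 and 17.3 CPM in M512_DMSO and 2.92, 3.46 and 2.42 CPM in M512_sorafenib. Its high group was M512_DMSO, and the other 3 groups lay under 5 CPM. The 24 h effect was -2.79 ± 0.47 (adjusted p = 0.000508). The DMSO groups differed by 3.19 ± 0.48 (adjusted p = 0.000728), while the sorafenib groups differed by -0.38 ± 0.47 (adjusted p = 0.707). SLC22A7, an organic anion transporter of hepatocytes, fell at 24 h (-2.17 ± 0.67, adjusted p = 0.0386), as did FAM43A (-3.87 ± 0.69, adjusted p = 0.000783) and SLC45A3 (-2.13 ± 0.47, adjusted p = 0.00461). The fall of SLC22A7 was lost in 8 of 20 alternatives, with adjusted p from 0.00127 to 0.105, and its difference in 4 of 19. The difference of FAM43A was lost in 5 of 19. Each of these 2 genes had a M512_sorafenib library at 0, SLC22A7 at 0, 1.92 and 6.17 CPM and FAM43A at 1.75, 0 and 1.33 CPM. SLC45A3 was at a mean of 3.84 CPM in I200c_DMSO and 20.8 CPM in M512_DMSO. Its DMSO part of 2.43 ± 0.47 passed (adjusted p = 0.00675), and its sorafenib part of -0.95 ± 0.46 did not (adjusted p = 0.248). With the control mimic at 24 h, described further on, its mean was 8.08 ± 5.09 CPM with DMSO and 8.10 ± 1.22 CPM with sorafenib (SD, n = 3). KLB, the co-receptor β-Klotho through which FGF19 limits bile acid synthesis, was at 50.4, 47.9 and 56.3 CPM in I200c_DMSO and 66.9, 82.2 and 67.2 CPM in I200c_sorafenib. It was at 122, 104 and 94.8 CPM in M512_DMSO and 22.6, 8.45 and 13.3 CPM in M512_sorafenib. The effects were 0.48 ± 0.25 and -2.86 ± 0.27, with a difference of -3.34 ± 0.37 (adjusted p = 2.83e-05).

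Gene lists were then read by time. Each count below stands against the background shares given above, and medians over all tested genes were 0.01 at 6 h and -0.03 at 24 h.

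**Figure D3:**
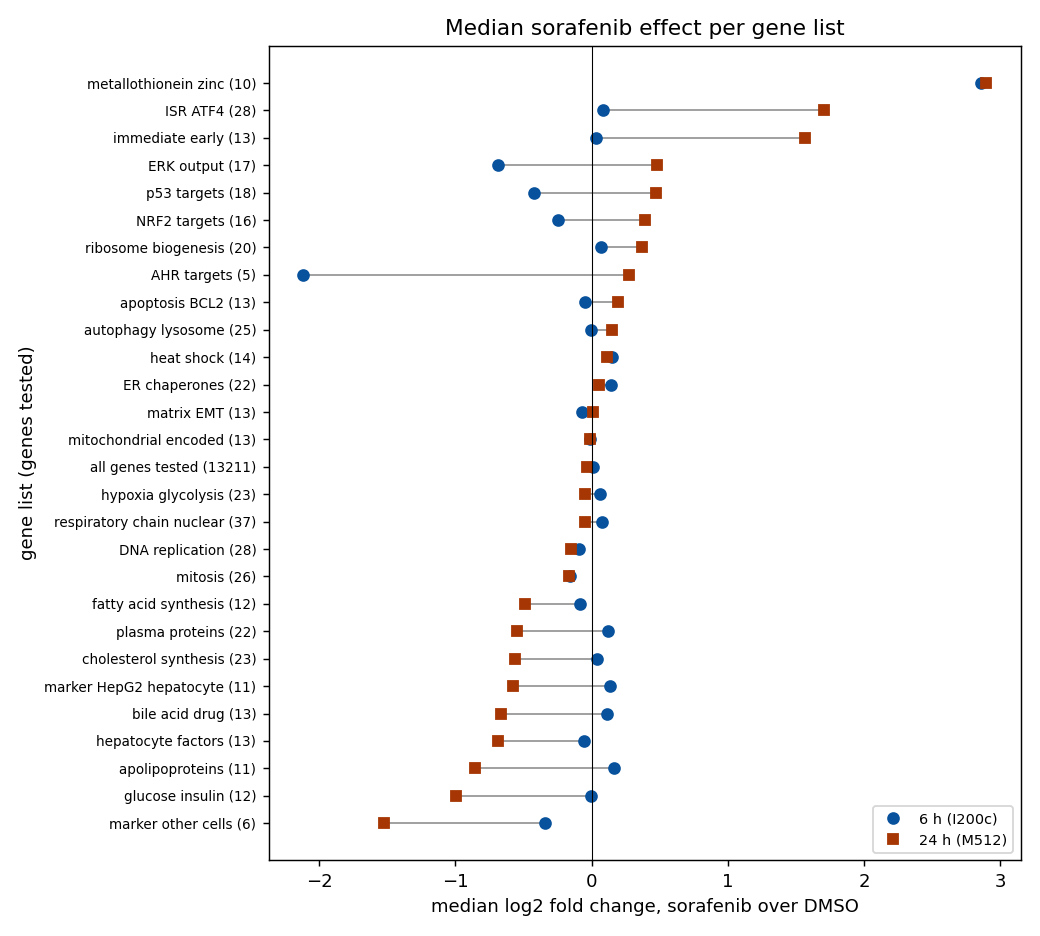
Median log2 fold change of sorafenib over DMSO for each gene list at 6 h (I200c, circles) and 24 h (M512, squares), with the number of genes tested in brackets and all 13211 genes as 1 line. The metallothionein list is high at both times, the ATF4 and immediate early lists are high at 24 h only, and the apolipoprotein list is low at 24 h.

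Of 28 tested genes of the integrated stress response, 1 rose and 1 fell at 6 h, and 20 rose and 0 fell at 24 h. In 12 of them the 24 h effect was higher (background 1.38%), and the median went from 0.08 to 1.71. Factors and sensors in the list that were late-only included ATF3, TRIB3, CEBPG, NUPR1 and PPP1R15A, and genes of amino acid supply included ASNS, SLC3A2 and MTHFD2. ATF4 itself, which acts mainly by translation, rose at 24 h by 1.19 and was at 0.12 at 6 h. ASNS, asparagine synthetase, was at 29.7, 27.4 and 24.2 CPM in I200c_DMSO and 25.9, 27.8 and 29.9 CPM in I200c_sorafenib. It was at 23.2, 19.5 and 21.9 CPM in M512_DMSO and 101, 118 and 150 CPM in M512_sorafenib. The effects were 0.04 ± 0.21 and 2.51 ± 0.22, and the DMSO part of -0.33 ± 0.21 did not pass (adjusted p = 0.583). GDF15, a secreted stress hormone on the ATF4 and p53 lists, was at 659, 537 and 530 CPM against 438, 445 and 426 CPM at 6 h. At 24 h it was at 345, 290 and 294 CPM with DMSO and at 2500, 2144 and 2133 CPM with sorafenib, an effect of 2.87 ± 0.18 (adjusted p = 9.63e-10). DDIT4, an inhibitor of mTORC1, had 1.00 ± 0.23 at 6 h (adjusted p = 0.0533) and rose by 3.24 ± 0.25 at 24 h. The ASNS promoter held 1 match of the C/EBP-ATF response element TGATGNAA, in capitals. Promoters with that run made up 15.4% of the list, 7.3% of late-only genes that rose, 3.0% of late-only genes that fell and 2.0% of tested genes.
ASNS, chr7:97872359-97872658, minus strand: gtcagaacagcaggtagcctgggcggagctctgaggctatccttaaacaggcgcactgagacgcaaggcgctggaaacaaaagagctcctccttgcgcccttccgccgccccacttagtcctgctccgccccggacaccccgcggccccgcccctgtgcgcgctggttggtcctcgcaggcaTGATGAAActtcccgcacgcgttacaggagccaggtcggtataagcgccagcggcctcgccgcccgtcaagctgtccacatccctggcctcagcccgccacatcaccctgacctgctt

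Immediate early genes, which encode fast transcription factors, had most of their calls at 24 h. Of 13 tested, 1 rose at 6 h and 8 at 24 h, 0 fell at either time, and the 24 h effect was higher in 6. JUN was at 112, 106 and 145 CPM against 185, 226 and 261 CPM at 6 h, an effect of 0.88 ± 0.23 (adjusted p = 0.107). At 24 h it was at 46.4, 29.996 and 53.4 CPM with DMSO and at 643, 653 and 410 CPM with sorafenib, an effect of 3.71 ± 0.26 (adjusted p = 3.22e-09). KLF6 had -0.75 ± 0.18 at 6 h (adjusted p = 0.0755) and rose by 1.56 ± 0.19 at 24 h. Of the 13 genes, 5 were lower in M512_DMSO than in I200c_DMSO and 0 higher (background 1.97% in both directions), ATF3, JUN, JUNB and KLF6 among them, so part of these differences lies in the DMSO cultures. Of 17 tested ERK output genes, 2 fell at 6 h, DUSP6 and IER3. At 24 h 4 rose and 1 fell, which became 2 and 2 with total counts. The median was -0.69 at 6 h and 0.48 at 24 h, and the 24 h effect was higher in PHLDA1, FOSL1 and IER3.

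Targets of NRF2, the sensor of oxidative stress, had 1 call at 6 h, the fall of SLC7A11, and 6 rises at 24 h among 16 tested, and the effects differed in the same number. GCLM, a subunit of glutamate-cysteine ligase, was at 49.2, 49.3 and 79.9 CPM against 33.9, 61.4 and 44.5 CPM at 6 h, and at 49.1, 58.3 and 48.4 CPM against 225, 131 and 333 CPM at 24 h, a rise of 2.15 ± 0.30 (adjusted p = 5.43e-05). TXNRD1, thioredoxin reductase, and HMOX1, heme oxygenase, rose at 24 h by 0.99 ± 0.20 and 0.92 ± 0.23, with -0.78 for both at 6 h. With the control mimic at 24 h, described further on, TXNRD1 rose by 1.15 ± 0.21 (adjusted p = 0.00289). HMOX1 was at -0.06 ± 0.32 there (adjusted p = 0.923). In the arms the canonical target NQO1 was at -0.15 and -0.37. Of 18 tested p53 targets, 0 passed at 6 h, 4 rose at 24 h and 5 had a higher 24 h effect. CDKN1A, the cell cycle inhibitor p21, was at 131, 158 and 175 CPM against 104, 83.8 and 82.2 CPM at 6 h, and at 85.0, 63.1 and 80.8 CPM against 190, 209 and 253 CPM at 24 h. Its effects were -0.78 ± 0.20 (adjusted p = 0.0898) and 1.51 ± 0.20 (adjusted p = 3.37e-05). BBC3, the pro-death protein PUMA, rose at 24 h by 2.30 ± 0.21, SESN2 by 2.09 ± 0.24, while MDM2 was at -0.21.

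The falls among liver function genes passed at 24 h. Among 11 tested apolipoprotein genes, 6 fell at 24 h (background 5.9%), 0 passed at 6 h and 4 had a lower 24 h effect: APOM, APOB, APOH and APOA5. APOB, the core protein of very-low-density lipoprotein, was at 3987, 3939 and 3743 CPM in I200c_DMSO, 5107, 4254 and 3464 CPM in I200c_sorafenib, 5219, 5891 and 4768 CPM in M512_DMSO and 1998, 3105 and 1429 CPM in M512_sorafenib. The 6 h groups overlapped, and the 24 h effect was -1.28 ± 0.23 (adjusted p = 0.000781). APOM was at 49.6, 43.6 and 56.3 CPM in I200c_DMSO against 136, 130 and 141 CPM in M512_DMSO, and M512_sorafenib was at 50.0, 47.7 and 41.3 CPM, so of the difference of -1.68 ± 0.29 the DMSO part of 1.44 ± 0.21 passed and the sorafenib part of -0.23 ± 0.21 did not (adjusted p = 0.567). Of 23 cholesterol synthesis and uptake genes, 9 fell at 24 h, 0 passed at 6 h, and 2 had a lower 24 h effect, among them SQLE, whose call was lost in 9 of 19 alternatives. Of 22 plasma protein genes, 8 fell at 24 h and 1, the clotting factor gene F10, had a lower 24 h effect, a call lost in 12 of 19 alternatives, as were those of APOA5 and APOH in 10 each and that of APOB in 5, with adjusted p up to 0.0667 for APOB. The bile acid receptor NR1H4 fell at 24 h (-1.05 ± 0.23), and so did HNF4A, a master regulator of hepatocytes (-1.40 ± 0.22, adjusted p = 0.000205), with -0.54 ± 0.21 at 6 h and no call on the difference. FOXA2, a pioneer factor of liver, rose at both times by 1.02 and 0.90. The summed level of the 11 hepatocyte markers was 12326 to 13883 CPM in I200c_DMSO, 13499 to 15004 CPM in I200c_sorafenib, 18506 to 19150 CPM in M512_DMSO and 10983 to 12211 CPM in M512_sorafenib, and its part in these results was not tested.

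Genes of glucose and insulin control had calls in both directions at 24 h. Of 12 tested, 1 fell at 6 h, and 2 rose and 4 fell at 24 h, with a median of -0.00184 at 6 h and -0.99 at 24 h. INSR, the insulin receptor, was at -0.30 ± 0.20 at 6 h and fell at 24 h (-1.03 ± 0.21, adjusted p = 0.00221). IGFBP1, IRS1 and TXNIP fell as well, while FOXO1 and FOXO3, transcription factors that insulin signalling holds back, rose by 1.13 and 1.11. In this list IGFBP1 alone had effects that differed. Of 12 fatty acid synthesis genes, 1 fell at 6 h (GPAM) and 4 fell at 24 h, among them SCD, the stearoyl-CoA desaturase (-1.06 ± 0.18, adjusted p = 0.00043), and 0 had effects that differed by the edgeR test (1 with total counts). Of 25 autophagy and lysosome genes, 4 rose and 2 fell at 24 h, which became 2 and 3 with total counts. The cargo receptor gene SQSTM1 rose by 0.97 ± 0.19 and the lysosomal protease gene CTSB fell by 0.93 ± 0.18. MAP1LC3B, which encodes an autophagosome protein, had effects that differed, a call lost in 9 of 19 alternatives, 8 of them by leaving out 1 library, with adjusted p from 0.00149 to 0.085. Of 14 heat shock genes, 3 rose and 1 fell at 24 h, of 13 hepatocyte transcription factor genes 1 rose and 5 fell, and of 13 genes of bile acid and drug handling 2 fell. Of 13 genes of the BCL2 family 2 rose, of 37 nuclear genes of the respiratory chain 3 fell, and of 13 matrix genes 1 rose and 1 fell.

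Further lists were read in the same way. Of 22 endoplasmic reticulum chaperone and sensor genes 1 rose at 24 h, ERN1, which encodes the sensor IRE1, by 1.85 ± 0.34 (adjusted p = 0.00115), and its difference was lost in 4 of 19 alternatives. Of 23 hypoxia and glycolysis genes 4 rose and 1 fell at 24 h. NDRG1, the one that fell, was at 20.2, 19.6 and 16.4 CPM in I200c_DMSO and 128, 105 and 114 CPM in M512_DMSO, and at 22.9, 29.0 and 31.2 CPM and 34.4, 42.5 and 40.1 CPM in the sorafenib groups. VEGFA, the endothelial growth factor, rose at 24 h by 1.81 ± 0.26, with a difference of 1.28 ± 0.37 that did not pass (adjusted p = 0.0726). With control oligonucleotides, described further on, its difference of 2.25 ± 0.39 passed (adjusted p = 0.0253). Of 28 DNA replication genes 4 fell at 24 h, and of 26 mitosis genes 3 fell and 1 rose. CCNB1, cyclin B1, was at 118, 136 and 159 CPM against 106, 122 and 113 CPM at 6 h, and at 83.7, 81.3 and 110 CPM against 30.9, 19.6 and 24.1 CPM at 24 h, an effect of -1.88 ± 0.22. Of 20 ribosome biogenesis genes 5 rose at 24 h, which became 0 rises and 1 fall with total counts. Of 13 mitochondrially encoded genes MT-CO1 rose and MT-CO2 and MT-ND3 fell at 24 h, by 1.62 ± 0.19, -1.20 ± 0.19 and -1.09 ± 0.18. Of 6 tested markers of other cells PDGFRB passed, at 24 h, with levels of 1.82 to 4.06 CPM in M512_DMSO and 0 in M512_sorafenib.

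Each difference of differences is the change of the sorafenib cultures between arms less that of the DMSO cultures. Between arms, 260 genes (1.97%) differed with DMSO and 801 (6.06%) with sorafenib. Leaving out 1 I200c_DMSO library gave 140 to 156 and 1 M512_DMSO library 96 to 149 genes between DMSO cultures, leaving out M512_sorafenib replicate 2 gave 423, and leaving out 1 I200c_sorafenib library gave 376 to 458 between sorafenib cultures. Of the 318 genes with effects that differed, the sorafenib groups alone were past the threshold in 182, the DMSO groups alone in 69, both in 18 and neither in 49, and the sorafenib part was larger in size in 210. Late-only genes that rose had a median DMSO part of -0.59 and a median sorafenib part of 1.19, and 34 of the 157 were lower in M512_DMSO than in I200c_DMSO while 0 were higher. Late-only genes that fell had medians of 0.82 and -0.92, and 45 of the 130 were higher in M512_DMSO while 0 were lower. Both comparisons share libraries with the difference itself, so these counts describe it and do not test it.

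**Figure D4:**
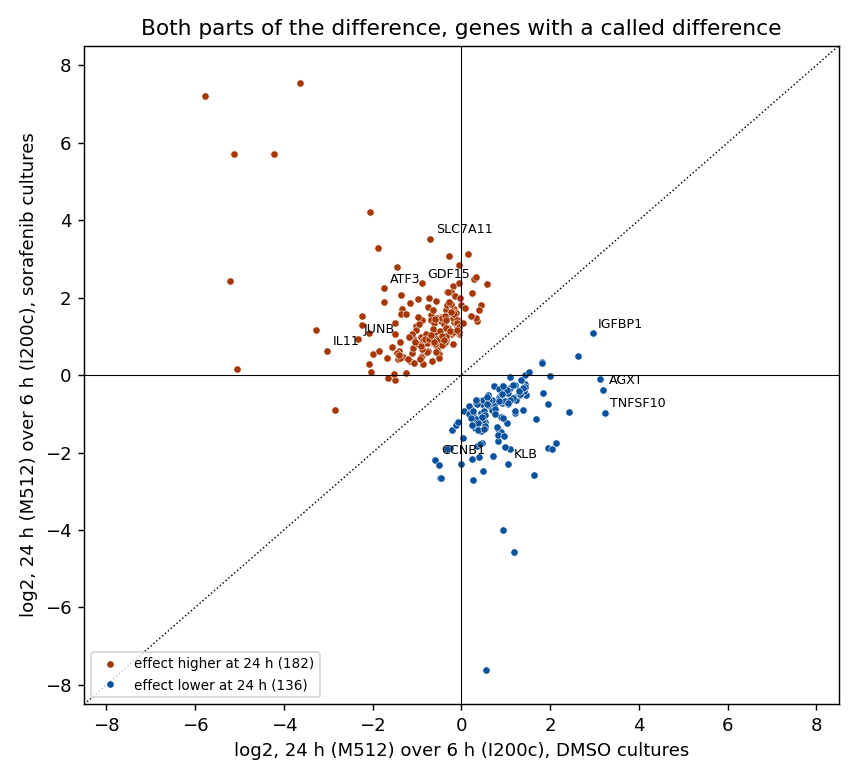
The 318 genes with effects that differed, with the log2 change between arms (24 h M512 over 6 h I200c) in DMSO cultures on the x axis and in sorafenib cultures on the y axis; the dotted line is no difference of differences. Red points (182) have a higher and blue points (136) a lower effect at 24 h. GDF15 and KLB lie far from 0 on the y axis, while IL11 and AGXT lie far from 0 on the x axis and near 0 on the y axis.

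The same contrast was looked up in 12 libraries that the arms did not use: IC, an inhibitor control at 6 h, and MC, a mimic control at 24 h, each with DMSO or 10 µM sorafenib, 3 libraries per group. These carry control oligonucleotides, though an inhibitor at 6 h and a mimic at 24 h, so the kind of oligonucleotide still changes with time. Some of their DMSO libraries stood apart. MT1B, absent from the DMSO libraries above, was at 15.9, 35.8 and 0 CPM in IC_DMSO and at 0, 23.5 and 0.459 CPM in MC_DMSO, against 54.2, 49.8 and 62.0 CPM in IC_sorafenib and 82.98 CPM or more in each MC_sorafenib library. Of 12500 genes tested in these controls, 27 (0.216%) had effects that differed, and leaving out 1 library gave from 0 (without IC_DMSO replicate 3, IC_sorafenib replicate 1 or 2, MC_DMSO replicate 1 or 3, or MC_sorafenib replicate 3) to 175 without MC_DMSO replicate 2 and 284 without MC_sorafenib replicate 2. The other 4 libraries gave 2 to 16. Where edgeR gave 0, 1242 to 1804 genes had an unadjusted p under 0.05. In the fit of all 12 control libraries 625 are expected by chance.

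Of the 318 genes, 315 were tested in both sets, and 306 of these (97.1%) had a control difference of the same sign, against 67.2% (8324) of all 12377 genes tested in both. A shared sign can go with a much smaller size. SLC45A3 had -0.24 in the controls against -3.37 in the arms, and NDRG1 had -0.29 against -2.13. HMOX1 had 0.24 against 1.70 and ZFAND2A 0.25 against 1.32. None of these differences passed in the controls. Of the 27 control calls, 20 were among the 318, and VEGFA was among the others. The calls in common included all 3 reversed genes, SLC7A11 at 3.16 (adjusted p = 0.0253), AREG at 2.34 (adjusted p = 0.0179) and IER3 at 1.94 (adjusted p = 0.0462), as well as ASNS, GDF15, KLB and TXNRD1. At 6 h the controls gave -0.26, -0.81 and -0.81 for SLC7A11, AREG and IER3, none past the threshold. In the edgeR test 0 genes passed at 6 h in the controls. At an unadjusted p under 0.05 there were 366, fewer than the 625 expected by chance. The metallothionein and zinc list had control medians of 1.43 at 6 h and 2.48 at 24 h. Its median difference was 1.06 in the controls and 0.07 in the arms. MT2A was at 1988, 2881 and 1282 CPM in IC_DMSO and at 4829, 4252 and 5945 CPM in IC_sorafenib. Its 6 h effect of 1.29 ± 0.32 did not pass (adjusted p = 0.609). IL11 and TNFRSF10D had control differences of 2.22 and 1.18, neither past the threshold (adjusted p = 0.305 and 0.194). The median difference of late-only genes was 1.78 and -1.69 in the arms and 1.01 and -0.90 in the controls. Without both MC libraries of replicate 2, the controls gave 529 genes, and 308 of 316 (97.5%) were of the same sign.

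**Figure D5:**
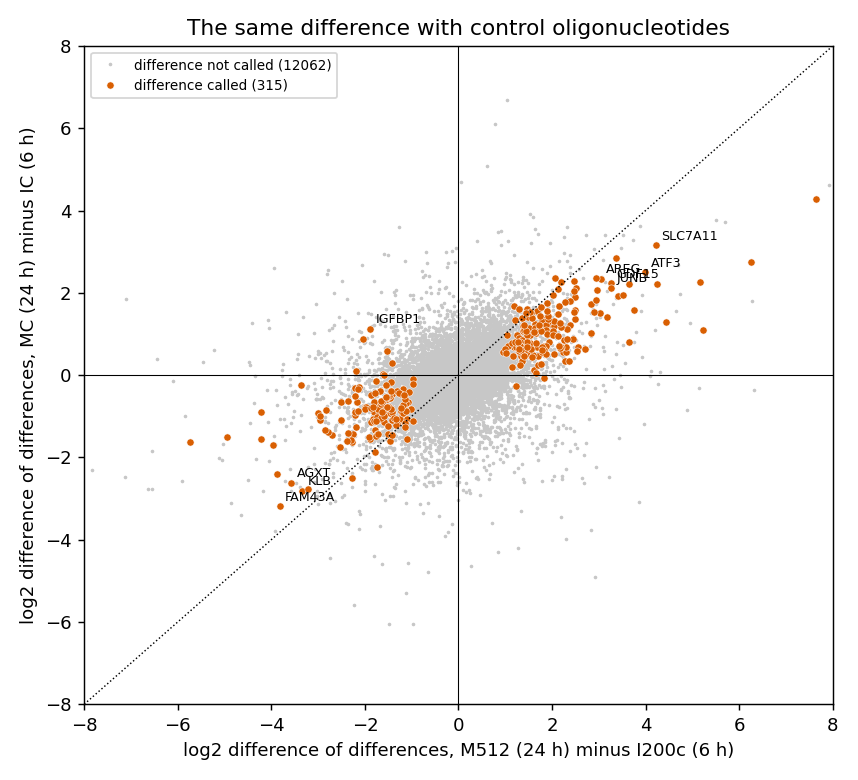
The log2 difference of differences per gene in the arms (M512 at 24 h less I200c at 6 h, x axis) and in the control oligonucleotides (MC at 24 h less IC at 6 h, y axis), with the 315 genes called in the arms in orange and the dotted line at equality; 3 genes lie outside the axes. Called genes lie mostly in the quadrants of equal sign, and IGFBP1 lies in a quadrant of opposite sign.

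The sign was opposite in the controls for 9 genes: APOL2, ARHGEF10L, CCNB1, IGFBP1, IL17RB, IL32, PAQR7, PLLP and RAPH1, of which those outside the naming rule are named after their values were seen. CCNB1 had a control difference of 0.02 against -1.60 in the arms. At 24 h the CCNB1 effect was -0.16 with the control mimic and -1.88 with the mimic of miR-512-3p. Whether the oligonucleotides have a part in this was not tested.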

How the data were processed

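Messenger RNA was read near the 3′ end with QuantSeq 3′ FWD libraries of HepG2 cultures, lysed after 6 h or 24 h of treatment. The submitters' processing notes name DRAGEN, STAR, HTSeq and DESeq2 and the build GRCh38; the versions of the aligner and counter and the annotation release are not given in the sources used here. The authors aligned the reads and counted them per gene, and the deposited values used here are raw counts per Ensembl gene. A second deposited table, scaled within each transfection, was not used here. The count table's lines that name no gene were left out.

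Groups came from the sample labels. The 12 libraries I200c_DMSO, I200c_sorafenib, M512_DMSO and M512_sorafenib were fitted together with edgeR 4.0.16 in R 4.3.3: filterByExpr, TMM scaling, 1 coefficient per group, glmQLFit and glmQLFTest, two-sided, Benjamini-Hochberg adjustment over 13211 genes, threshold 0.05. Contrasts were sorafenib over DMSO at 6 h and at 24 h, their difference, and 24 h over 6 h within DMSO and within sorafenib. The IC and MC libraries were fitted apart in the same way. The SE is the size of the log2 fold change divided by the square root of F. Levels are TMM-scaled CPM. Scripts were tested on simulated data.

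The series describes its replicates as biological. Between replicates of a group, chi-square per degree of freedom was 12.1 to 66.2 where counting error gives about 1, and the correlation of log levels was 0.937 to 0.977.

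Genes were named by rule: the 5 genes per class and direction with the widest difference (lasting: the largest smaller effect), with a mean of at least 5 CPM and groups that do not overlap in each arm called, up to 10 reversed genes, and up to 4 members of each gene list with a call, by the p of the difference (2 by level where a list has none). MT1B and CYP1A1 were named as label checks. Other list members are named with their list's counts. 1 gene that the rule named is not reported here by name, though list counts include it. The arms and the gene lists were chosen with earlier results of these data known. Gene positions are from GENCODE on GRCh38, which may differ from the annotation used for counting. Promoters and miRNA sequences are from RefSeq on GRCh38.p14, and 9722 of the 13211 tested genes had a promoter entry.

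Alternatives were DESeq2 size factors, total counts, no filter, DESeq2 1.42.0 Wald tests, replicate blocks, all 30 libraries in 1 fit, each arm fitted apart, a threshold of 0.01 and leaving out each library. Leaving out both MC libraries of replicate 2 and sorting genes by arms fitted apart were added after seeing the data.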

Additional observations from a re-analysis of the deposited data

Results flagged for a closer look

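Each gene below was named by rule and had sorafenib effects that differed between the 6 h and the 24 h arm by the edgeR test of the difference itself. Values are the 24 h effect minus the 6 h effect on the log2 scale. These were 46 of the 102 named genes, 29 with a higher and 17 with a lower effect at 24 h. Oligonucleotide and time change together in all of them.

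Both early-only genes had a positive difference, IL11 (3.65) and TNFRSF10D (2.20), as did the 3 reversed genes, SLC7A11 (4.22), AREG (3.04) and IER3 (2.02). Lasting genes whose rise was larger at 24 h were JUNB (3.27) and GADD45B (1.68, lost in 2 of 19 alternatives), and the fall of IGFBP1 was larger at 24 h (-1.89).

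Late-only genes with a higher 24 h effect held transcription factors and early response genes, CREB5 (4.44), NR1D1 (4.24), ATF3 (3.99), FOSL1 (3.18), JUN (2.83), KLF6 (2.31) and PHLDA1 (1.38). Genes of the stress and amino acid response among them were GDF15 (3.27), ASNS (2.47), DDIT4 (2.25), SESN2 (2.32), ERN1 (2.18) and ZFAND2A (1.32), and genes of glutathione and redox control were GCLM (2.50), TXNRD1 (1.77) and HMOX1 (1.70). The cell cycle inhibitor and death genes were CDKN1A (2.29) and BBC3 (1.82). The others were SAMD11 (5.22), EMP3 (3.76), MAP1LC3B (1.26, lost in 9 of 19 alternatives) and MT-CO1 (1.30).

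Late-only genes with a lower 24 h effect held liver transport and metabolism genes, SLC22A7 (-3.96), AGXT (-3.57), KLB (-3.34) and NR1H4 (-1.49), apolipoproteins, APOA5 (-2.29), APOM (-1.68), APOB (-1.42) and APOH (-1.02), and SQLE of cholesterol synthesis (-1.22). The others were TNFSF10 (-4.21), FAM43A (-3.82), SLC45A3 (-3.37), NDRG1 (-2.13), CCNB1 (-1.60), MT-CO2 (-1.19) and F10 (-1.46).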

How the results depend on the processing

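Counts are given for genes changed at 6 h (62), at 24 h (1568), with effects that differed (318), between DMSO cultures (260) and between sorafenib cultures (801), for early-only (2), late-only (287), lasting (51) and reversed (3) genes, and for differences in the controls (27). Counts not given for a setting stayed within 1.5 times these. DESeq2 size factors moved none past that. Total counts gave 4 early-only and 1 reversed gene. With no filter on low counts there were 160 genes at 6 h, 16 early-only, 88 lasting, 9 reversed and 386 in the controls. DESeq2 Wald tests gave 191 at 6 h, 591 that differed, 524 between DMSO and 1313 between sorafenib cultures, 10 early-only, 506 late-only, 103 lasting, 11 reversed and 259 in the controls. All 30 libraries in 1 fit gave 6 early-only genes, 1 of them shared with the 2, and 3 reversed genes of which only AREG was shared. The I200c arm fitted apart gave 113 at 6 h, and sorting by arms fitted apart gave 6 early-only genes, IER3 now among them, and 3 reversed genes, 1 of them shared. A threshold of 0.01 left 101 late-only and 0 reversed genes. Without both MC libraries of replicate 2 the controls gave 529.

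Deviations of same-numbered DMSO and sorafenib libraries correlated at 0.007 to 0.14 in I200c and -0.014 to 0.149 in M512. Pairs of unlike number correlated at -0.131 to 0.0803 in I200c and -0.137 to 0.0665 in M512. These values are small and do not settle whether the replicate numbers pair the samples. With a replicate block within transfections there were 103 genes at 6 h, 7 early-only, 6 reversed and 0 in the controls. In that edgeR fit of the controls 1804 had an unadjusted p under 0.05, with 625 expected by chance. The DMSO and sorafenib comparisons between arms could not be fitted with this block. With a replicate block across transfections there were 111 at 6 h, 498 that differed, 404 between DMSO cultures, 8 early-only, 437 late-only, 8 reversed and 11 in the controls.

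Leaving out 1 library gave 37 (without I200c_sorafenib replicate 1) to 128 genes at 6 h, 962 (without M512_DMSO replicate 2) to 1694 at 24 h, 176 to 541 that differed, 96 (without M512_DMSO replicate 1) to 423 between DMSO cultures and 376 (without I200c_sorafenib replicate 2) to 1055 between sorafenib cultures. It gave 1 to 11 early-only, 158 to 460 late-only, 36 to 73 lasting and 0 to 10 reversed genes and 0 to 284 in the controls. The highest counts came without M512_sorafenib replicate 2, apart from that at 24 h (without M512_sorafenib replicate 3) and in the controls (without MC_sorafenib replicate 2). Why these libraries matter was not tested.

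Of 3293 called values of named genes under the alternatives, 0 changed sign, and of 2782 values without a call 64 did. Leaving out 1 library lost 220 of 2004 such calls. Depth limits IL11, SAMD11, CYP1A1, TNFSF10, SLC22A7, FAM43A and PDGFRB, among others, which have libraries at or near the limit of a count of 0.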

Other observations

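The seed sites of both miRNAs were counted in the 3′ untranslated regions of the classes. The 7-base site CAGTATT of miR-200c-3p stood in 32.9% of late-only genes that rose, 16.9% of those that fell and 19.1% of the 11206 tested genes with such a region. The site CAGCACT of miR-512-3p stood in 27.3%, 21.8% and 22.9%. The regions of late-only genes that rose had a median length of 1817 bases against 1291.5 for those that fell and 1321 over all tested genes, and longer regions hold more sites of any kind. The part of length in these shares was not tested.

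Several growth factor and injury genes had effects of opposite sign that differed, with a call in at least 1 arm; they are named after their values were seen. EREG, the EGF receptor ligand epiregulin, was at 24.1, 16.2 and 43.9 CPM in I200c_DMSO, 6.05, 6.57 and 13.2 CPM in I200c_sorafenib, 5.90, 5.40 and 6.43 CPM in M512_DMSO and 31.3, 20.2 and 11.5 CPM in M512_sorafenib. Its effects were -1.71 ± 0.41 (adjusted p = 0.0733) and 1.82 ± 0.43 (adjusted p = 0.00723), a pattern like that of AREG with a 6 h value that did not pass. ANKRD1, a YAP target, had -1.06 ± 0.26 (adjusted p = 0.073) and 0.86 ± 0.26 (adjusted p = 0.032). AHR, the aryl hydrocarbon receptor itself, had -0.55 ± 0.22 at 6 h and rose by 1.13 ± 0.22 at 24 h (adjusted p = 0.00198). Its target CYP1A1 was lower with sorafenib at both times, at 24 h on levels at or near the limit of a count of 0. SOS1, an activator of RAS, was lasting and fell from 175, 180 and 194 CPM to 49.0, 47.6 and 55.2 CPM at 6 h and from 37.6, 63.7 and 59.5 CPM to 26.5, 25.2 and 17.9 CPM at 24 h.

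Genes whose control difference was of the opposite sign included IL32, an inflammatory cytokine, at 1.23 in the arms and -0.26 in the controls, and PLLP, a membrane protein of myelin and epithelia, at -2.20 and 0.10. IL32 was at a mean of 61.1 CPM in M512_DMSO and 201 CPM in M512_sorafenib, against 99.2 and 90.8 CPM in MC_DMSO and MC_sorafenib.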
